A study of Mus musculus with 4 samples.

Results

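The synaptic vesicle and release machinery is described here as 40 named genes, found by their symbols among the 24100 genes of the count tables, with all 40 matched and all 40 among the 14636 genes that passed the filter on low counts. They fall into 11 groups by role: synapsins, synaptotagmins, SNARE proteins, complexins, SV2 proteins, Rab3 GTPases, RIMs, the active zone scaffolds Bassoon and Piccolo, Munc13 priming factors, the synaptophysin family, and the pair Sncb and Doc2a. Translating ribosome affinity purification, in which RNA is recovered from ribosomes carrying an EGFP tag by antibodies against EGFP, was carried out on prefrontal cortex from adult males of the Crh-IRES-Cre line (Jackson 012704), in which Cre is made from the locus of the stress peptide gene Crh. There were 3 immunopurified libraries (IP 1, 2 and 3) and 1 Input library of the same tissue, each from 5 males of this line, all untreated. How the tagged ribosome was brought into the Cre-expressing cells is not in the labels, nor is it said that each library had its own animals. The p-values thus reflect library-to-library spread alone, which may be technical. The Input had no replicate.

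Neurons store transmitter in vesicles that synapsins hold in a cluster, that Rab3 GTPases, RIMs, Bassoon and Piccolo bring to the active zone, and that Munc13 proteins prime. Fusion is carried out by the SNARE proteins Snap25, syntaxin 1 and synaptobrevin (Vamp), with complexins acting on the assembled complex and synaptotagmins sensing calcium. The same core machinery releases glutamate, GABA and, with other factors, peptides, while several families hold paralogs that differ between classes of neuron. Immunopurified and Input RNA therefore allow each paralog's level in the recovered RNA to be set beside its level in the prefrontal cortex Input. The recovered RNA is bound to ribosomes and may hold RNA of other cells, so the fractions differ in more than cell type.

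Among the 40 genes, Synpr, which encodes the vesicle membrane protein synaptoporin, was the only one that differed between IP and Input past the threshold (edgeR's quasi-likelihood test, Benjamini-Hochberg adjusted p under 0.05 over all genes tested), and it rose. That is 1 of 40 members (2.5%), against 0.41% of all tested genes called higher in IP (60 genes) and 0.0478% called lower (7 genes), a split that was 51 to 15 with upper-quartile factors and 50 to 15 with library totals, and the other 39 members had adjusted p-values of 0.413 or more. No member was called lower by edgeR, DESeq2 or limma-voom with all libraries in the fit, with 1 lower at an unadjusted p under 0.05 by edgeR. The depth was 10031072 to 23548375 counts in the IP libraries and 14474529 in the Input. An adjusted p that misses the threshold does not show that the levels were equal. Levels are given as CPM (counts scaled to library size and TMM factor), with the SD over the 3 IP libraries.

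Synpr has a pair of annotated starts in RefSeq, 169 kb apart, and the 250 bases before each are shown because Synpr is the member that rose, with the window of Syp, the gene of its relative synaptophysin, for comparison (RefSeq sequences, build GRCm38.p6, written 5′ to 3′). Capitals mark each match to the GC box letters GGGCGG on either strand.
Synpr upstream start (chr14:13284530-13284779, plus strand): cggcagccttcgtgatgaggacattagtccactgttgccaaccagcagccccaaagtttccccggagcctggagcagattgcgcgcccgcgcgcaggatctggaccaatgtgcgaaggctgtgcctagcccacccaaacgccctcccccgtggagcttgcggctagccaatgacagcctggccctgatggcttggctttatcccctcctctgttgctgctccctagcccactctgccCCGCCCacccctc
Synpr downstream start (chr14:13453708-13453957, plus strand): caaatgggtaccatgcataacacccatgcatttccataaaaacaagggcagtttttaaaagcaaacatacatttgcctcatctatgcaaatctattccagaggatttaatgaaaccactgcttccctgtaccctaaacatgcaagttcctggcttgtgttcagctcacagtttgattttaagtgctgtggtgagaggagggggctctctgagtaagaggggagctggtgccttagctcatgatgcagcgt
Syp start (chrX:7638330-7638579, plus strand): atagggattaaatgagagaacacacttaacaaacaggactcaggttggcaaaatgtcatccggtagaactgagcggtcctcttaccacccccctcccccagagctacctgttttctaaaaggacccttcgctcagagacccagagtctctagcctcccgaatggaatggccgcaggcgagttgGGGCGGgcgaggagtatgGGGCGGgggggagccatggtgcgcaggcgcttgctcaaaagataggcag
The upstream Synpr window was 64% G and C with 13 CG dinucleotides and 1 GC box, the downstream window 44.4% with 1 CG dinucleotide and no GC box, and the Syp window 56.4% with 11 CG dinucleotides and 2 GC boxes. The letters GGGCGG stood in 26 of 39 member windows (66.7%) and in 32.7% of 32851 windows of all genes, and the TATA box letters TATAAA in 3 of the 39 and in 12.4% of all windows, with both strands searched and no overlap between these motifs. Windows were at hand for 29 of the 40 members, and 2 of the 3 windows of Syt6 overlap. Counts were made per gene, so the start from which the Synpr transcripts came was not analysed here.

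In the synaptophysin family of tetraspan vesicle proteins, Synpr (Entrez 72003, chromosome 14, 13284780 to 13616340 on the plus strand of GRCm38, protein coding) was at 737, 364 and 364 CPM in IP 1, 2 and 3, against 39.8 CPM in the Input. Every IP library was far above the Input, and IP 1 stood above the other IP libraries. The mean was 488.5 ± 215 CPM in IP (SD, n = 3), a log2 fold of 3.62 ± 0.56 (SE, edgeR adjusted p = 0.00206), higher in 3 of 3 IP libraries. Over the 11 alternative fits its log2 fold ran from 3.17 to 3.79 and its adjusted p from 3.46e-09 to 0.0333, and the rise passed in each. No exon base of Synpr is shared with another annotated gene. Without IP 1 its log2 fold was 3.17 (edgeR adjusted p = 1.22e-08).

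None of the relatives of Synpr passed the test. Syp, the gene of synaptophysin and the most abundant of the family in the Input, was at 746, 668 and 661 CPM in IP 1, 2 and 3, against 502 CPM in the Input, a log2 fold of 0.46 ± 0.36 (SE). Syngr3, a synaptogyrin of vesicle membranes, was at 142, 131 and 137 CPM in the IP libraries and 91.6 CPM in the Input (log2 fold 0.58 ± 0.51). Syngr1, the other synaptogyrin here, was at 221, 218 and 237 CPM in the IP libraries and 166 CPM in the Input (log2 fold 0.44 ± 0.44). Each of the 3 lay above the Input in all IP libraries without passing the test, and 16.79% of the exon bases of Syp are shared with another annotated gene. Per kb of exon, Synpr made up 23.3%, 14.0% and 13.7% of the family's summed level in IP 1, 2 and 3, against 2.35% in the Input, while the share of Syp was 42.7%, 46.6% and 45.1% in the IP libraries and 53.7% in the Input. In the order of the 40 genes by level per kb, Synpr was the 16th in IP and the 33rd in the Input.

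**Figure D1:**
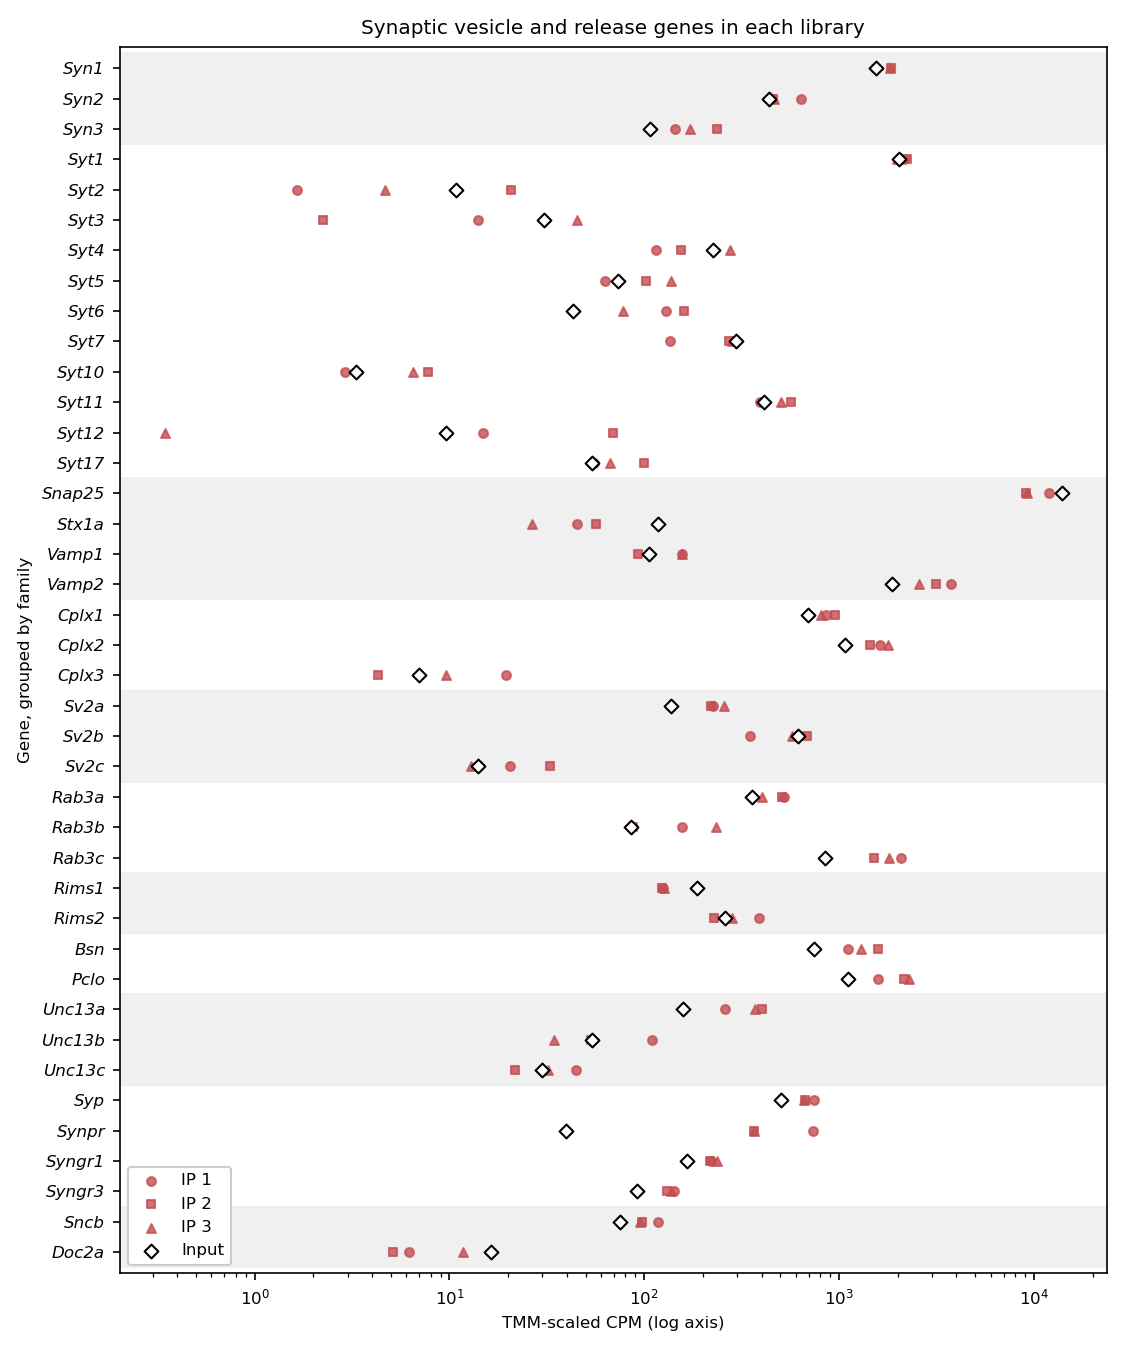
TMM-scaled CPM (log axis) of the 40 genes, 1 row per gene, with shading that alternates between groups by role; red circles, squares and triangles are IP 1, 2 and 3 and the white diamond is the Input. Synpr stands alone with its IP points (364 to 737 CPM) far right of its Input (39.8 CPM), Stx1a has its IP points left of the Input, and Syt12, Syt2 and Syt3 have IP points spread widely on both sides.

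As a whole, 19 of the 40 genes (47.5%) lay above the Input in all 3 IP libraries and 5 (12.5%) below it, against 19.7% and 24.1% of all tested genes. With upper-quartile factors the members' counts were 15 (37.5%) and 7 (17.5%), against 13.4% and 31.6% of all tested genes. With library totals they were 14 (35%) and 8 (20%), against 12.1% and 34% of all tested genes. The side given for each gene in the text is that with TMM factors, and for some members it changed with these scalings. The count also differed with level. Of the 4051 tested genes that averaged 50 CPM or more over the 4 libraries, 40.1% lay above the Input in all 3 IP libraries and 13.9% below, and of the 32 members at that level 19 (59.4%) lay above and 4 (12.5%) below. Members and tested genes were not matched for level above 50 CPM, here or in later comparisons at that level. Their summed level was 32715, 30099 and 29669 CPM in IP 1, 2 and 3, against 28591 CPM in the Input. The median log2 fold of the 40 genes was 0.45, that of all tested genes 0.083, and that of the tested genes at 50 CPM or more 0.28. In single IP libraries the members' median log2 ratio to the Input, with 0.5 CPM added, was 0.54, 0.42 and 0.32.

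At an unadjusted p under 0.05, 7 of the 40 members (17.5%) were higher in IP, against 3.2% of all tested genes. All 7 averaged 50 CPM or more, so at that level the count was 7 of 32 members, against 9.5% of tested genes. Besides Synpr the 7 were Rab3c, Unc13a, Pclo, Syt6, Bsn and Vamp2. A single member, Stx1a, was lower, against 1.23% of all tested genes and 2.02% of those at 50 CPM or more. Apart from Synpr, none of them passed after adjustment over all genes. These unadjusted counts were made with TMM factors and were not repeated with other scalings. The members' median log2 fold was 0.23 with upper-quartile factors and 0.17 with library totals, against 0.45 with TMM. That of all tested genes moved too, to -0.13 and -0.19.

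**Figure D2:**
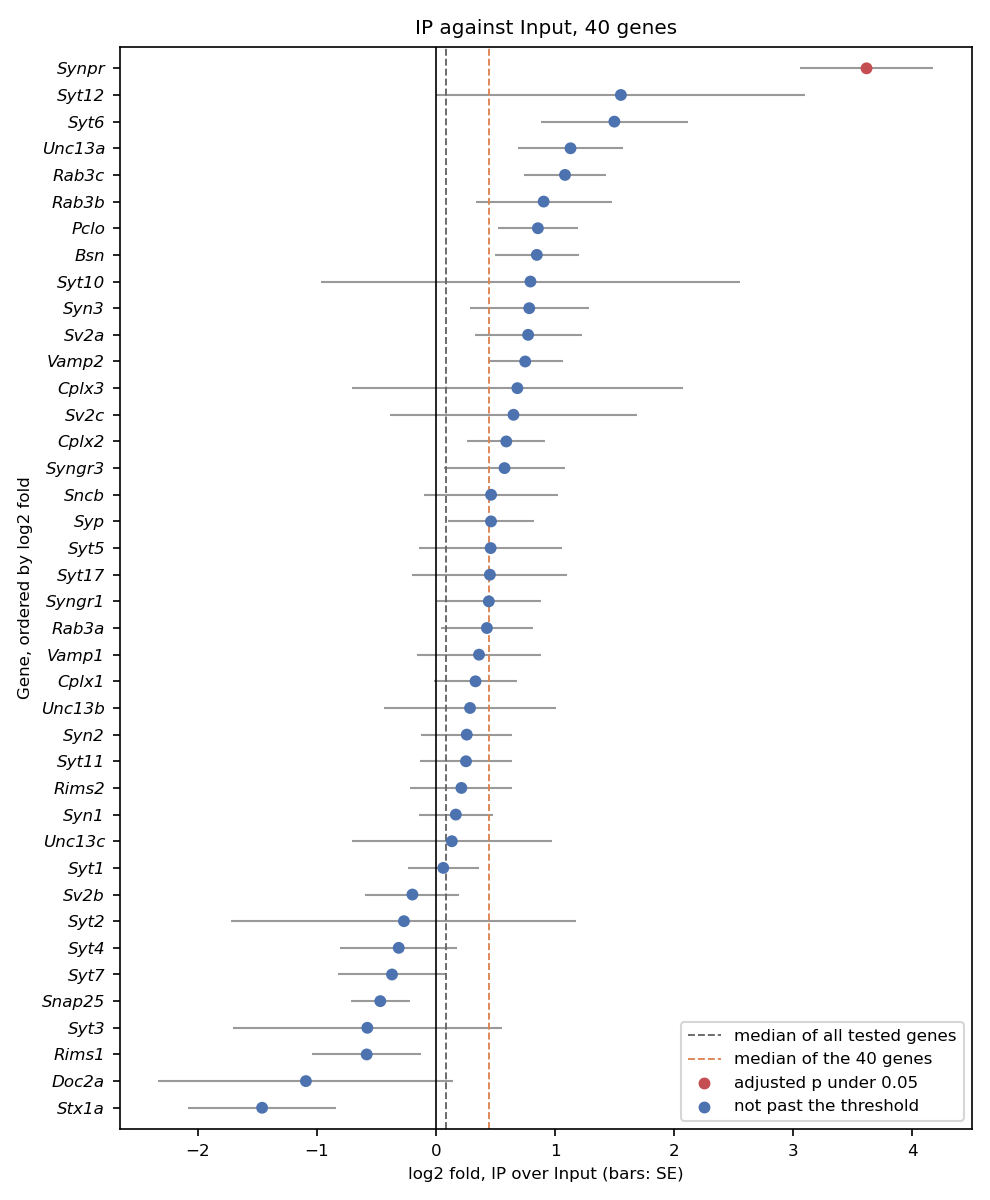
Log2 fold of IP over Input for the 40 genes, ordered by size; points are edgeR estimates, bars their SE, red the gene past the adjusted threshold (Synpr, 3.62) and blue the rest. The dashed lines mark the medians of all tested genes (0.083) and of the 40 genes (0.45), and the lowest estimate is that of Stx1a (-1.46).

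Among the SNARE genes, which form the fusion complex, Snap25 and Vamp2 were on opposite sides of the Input. Snap25, the plasma membrane SNARE with the highest level of all 40 genes, was at 11958, 9054 and 9254 CPM in IP 1, 2 and 3, against 13958 CPM in the Input, a log2 fold of -0.47 ± 0.25 (SE). Vamp2 (synaptobrevin 2, the vesicle SNARE) was at 3736, 3156 and 2557 CPM in the IP libraries and 1874 CPM in the Input, a log2 fold of 0.75 ± 0.32 (edgeR adjusted p = 0.931). All IP libraries were below the Input for Snap25 and above it for Vamp2, and neither passed. Snap25 alone took 48.8% of the summed CPM of the 40 genes in the Input and 32.7% of their mean sum in IP. The ratio of Vamp2 to Snap25 per kb of exon was 0.557, 0.621 and 0.493 in IP 1, 2 and 3, against 0.239 in the Input.

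Stx1a, which encodes the plasma membrane SNARE syntaxin 1A, was the lowest of the 40 relative to the Input. It was at 45.1, 56.3 and 26.6 CPM in IP 1, 2 and 3, against 118 CPM in the Input, a log2 fold of -1.46 ± 0.62 (SE, edgeR adjusted p = 0.953). The lowest adjusted p of Stx1a in any alternative was 0.574, with limma-voom. Vamp1, the other synaptobrevin, was at 156, 92.5 and 157 CPM in IP 1, 2 and 3 around an Input of 105 CPM (log2 fold 0.36 ± 0.52).

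The synaptotagmins spanned levels per kb of exon of 253 CPM (Syt1) to 1.18 CPM (Syt2) in IP, against 243 and 1.41 CPM in the Input. Syt1, the main calcium sensor for fast release in forebrain neurons, was at 2141, 2219 and 1976 CPM in IP 1, 2 and 3, against 2025 CPM in the Input, a log2 fold of 0.061 ± 0.30 (SE), and its Input value lay inside the IP range. Syt6, a calcium-binding synaptotagmin with less studied roles, was at 129, 159 and 77.3 CPM in the IP libraries and 43.1 CPM in the Input, a log2 fold of 1.50 ± 0.62 (edgeR adjusted p = 0.903), above the Input in all 3. Syt7, a slow sensor of high calcium affinity, was at 136, 273 and 280.5 CPM in the IP libraries and 297 CPM in the Input (log2 fold -0.37 ± 0.45). Within the family, per kb of exon, the share of Syt6 was 4.93%, 4.88% and 2.44% in the IP libraries against 1.53% in the Input, and that of Syt7 was 4.06%, 6.50% and 6.89% against 8.23%. Syt1 kept the largest share, at 57.3%, 47.4% and 43.6% in the IP libraries and 50.4% in the Input.

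Syt11 and Syt4 are synaptotagmins that do not act as calcium sensors of fast fusion. Syt11 was at 394, 568 and 503 CPM in IP 1, 2 and 3, against 410 CPM in the Input (log2 fold 0.25 ± 0.38), and Syt4 at 114, 155 and 275 CPM in the IP libraries and 225 CPM in the Input (log2 fold -0.31 ± 0.49), both with the Input inside the IP range. For Syt5 (62.7, 102 and 137 CPM in the IP libraries, 73.0 CPM in the Input) the Input also lay inside the range. Syt17 was at 55.1, 99.9 and 67.0 CPM in the IP libraries and 54.0 CPM in the Input, above it in all 3. Syt10, known from mouse olfactory bulb neurons as a sensor for growth factor secretion, was near the lower end, at 2.92, 7.81 and 6.47 CPM in the IP libraries and 3.30 CPM in the Input.

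Some low synaptotagmins differed more between IP libraries than between IP and Input. Syt12, which lacks calcium binding, had 14.9, 69.4 and 0.345 CPM in IP 1, 2 and 3 (342, 649 and 4 counts), against 9.59 CPM in the Input (160 counts), a log2 fold of 1.55 ± 1.55 (SE) that was -0.33 without IP 2 and with limma-voom. Syt3 was at 13.9, 2.25 and 44.9 CPM in the IP libraries and 30.4 CPM in the Input (log2 fold -0.58 ± 1.13), and its fold was -0.050 without IP 2 and -1.90 without IP 3. Syt2, the fast sensor used by parvalbumin cells among others, was at 1.66, 20.6 and 4.66 CPM in the IP libraries and 10.8 CPM in the Input, a log2 fold of -0.27 that ran from -1.78 without IP 2 to 0.20 without IP 1. Pvalb itself was at 2.22, 21.9 and 4.83 CPM in the IP libraries and 20.3 CPM in the Input. Syt2 and Pvalb thus shared the order of the 3 IP libraries, with IP 2 the highest and IP 1 the lowest. Other members, such as Syn1, Bsn and Unc13a, had the same order, so it is not particular to Syt2 and Pvalb. Any part of parvalbumin cells in the Syt2 values was not tested. Of the exon bases of Syt12, 17.15% are shared with another annotated gene, and of those of Syt4 14.54%.

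**Figure D3:**
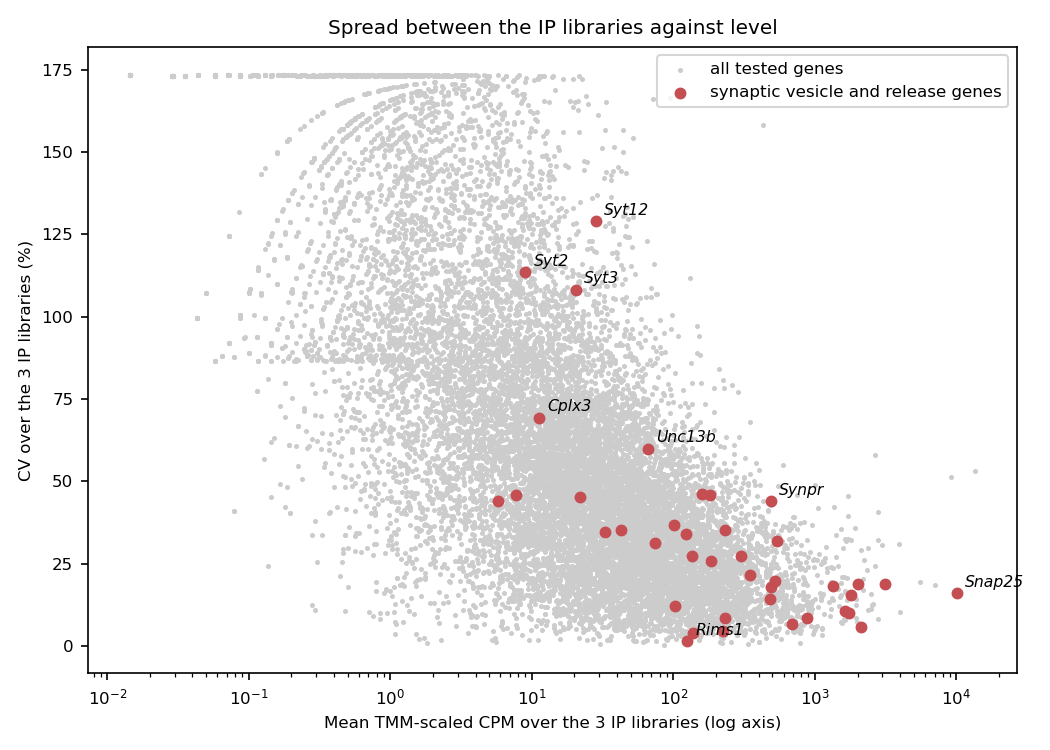
CV over the 3 IP libraries (percent) against mean IP level (TMM-scaled CPM, log axis); grey points are all tested genes with counts in IP and red points the 40 genes. Members at 50 CPM or more in IP have CVs of 1.41% (Rims1) to 59.95% (Unc13b), and the low genes Syt12, Syt2 and Syt3 lie above 100%.

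The spread between IP libraries followed the level. The CV over the 3 IP libraries had a median of 18.7% among the 31 members at a mean of 50 CPM or more in IP, against 26.9% among the 4159 tested genes at that level, and it ran from 34.6% to 129% among the 9 members under 50 CPM. For 5 members the highest IP library was at least 3 times the lowest, namely Syt2, Syt3, Syt12, Cplx3 and Unc13b. The highest value was in IP 1 for 13 members, in IP 2 for 15 and in IP 3 for 12.

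Among the Rab3 GTPases, which sit on vesicles and bind RIM, Rab3c had the second smallest p of the 40 genes. Rab3c (chromosome 13, 110054187 to 110280996) was at 2070, 1515 and 1805 CPM in IP 1, 2 and 3, against 848 CPM in the Input, a log2 fold of 1.08 ± 0.34 (SE, edgeR adjusted p = 0.413), above the Input in 3 of 3. Without IP 1 its log2 fold was 0.95 and the edgeR adjusted p 0.0347. Rab3b, a paralog with a restricted pattern in the brain, was at 157, 87.6 and 234 CPM in the IP libraries and 85.3 CPM in the Input (log2 fold 0.90 ± 0.57), with IP 2 close to the Input. Rab3a, the main Rab3 of brain synapses, was at 524, 511 and 400 CPM in the IP libraries and 356 CPM in the Input (log2 fold 0.43 ± 0.38). Per kb of exon, Rab3c took 38.1%, 33.1% and 37.8% of the family's level in the IP libraries and 27.7% in the Input, and Rab3a 52.1%, 60.4% and 45.4% against 62.8%.

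The active zone scaffolds are encoded by some of the longest transcripts of the set, and both were above the Input in all IP libraries. Pclo, the gene of Piccolo, was at 1578, 2153 and 2296 CPM in IP 1, 2 and 3, against 1110 CPM in the Input, a log2 fold of 0.86 ± 0.34 (SE, edgeR adjusted p = 0.838), and without IP 1 it was 0.98 (edgeR adjusted p = 0.0106). Bsn, the gene of Bassoon, was at 1112, 1593 and 1301 CPM in the IP libraries and 742 CPM in the Input, a log2 fold of 0.85 ± 0.35 (edgeR adjusted p = 0.905). Their ratio per kb of exon, Pclo to Bsn, was 1.01, 0.959 and 1.25 in the IP libraries and 1.06 in the Input, which lay inside the IP range. Without IP 1, Snap25 also passed as lower (log2 fold -0.63, edgeR adjusted p = 0.00428), so that 3 members were called higher and 1 lower in that fit, while 185 genes in all were called higher and 25 lower.

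The RIM genes, which link Rab3 on vesicles to calcium channels, stood on different sides of the Input. Rims1 was at 125, 123 and 127 CPM in IP 1, 2 and 3, against 188 CPM in the Input, a log2 fold of -0.58 ± 0.46 (SE), and each of the 3 was below the Input. Rims2 was at 389, 228 and 282 CPM in the IP libraries and 259 CPM in the Input (log2 fold 0.21 ± 0.43), with the Input inside the IP range. Rims2 made up 68.7%, 56.7% and 61.2% of the pair per kb of exon in the IP libraries, against 49.4% in the Input. Neither gene passed the test, and the fitted fold of Rims2 turned to -0.055 with library totals and to -0.041 without IP 1.

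Munc13 proteins prime vesicles for fusion. Unc13a (Munc13-1), the main one of cortical excitatory synapses, was at 261, 403 and 371 CPM in IP 1, 2 and 3, against 158 CPM in the Input, a log2 fold of 1.13 ± 0.44 (SE, edgeR adjusted p = 0.832), above the Input in all 3. Unc13b (Munc13-2) was at 110, 53.0 and 34.4 CPM in the IP libraries and 54.1 CPM in the Input (log2 fold 0.29 ± 0.72), and Unc13c (Munc13-3), best known from the cerebellum, at 44.5, 21.8 and 32.1 CPM and 29.9 CPM (log2 fold 0.13 ± 0.84). Without IP 1 the fitted folds of Unc13b and Unc13c turned to -0.33 and -0.17. Unc13b was highest in IP 1, and the share of Unc13a per kb of exon was 67.6% in IP 1, 86.9% in IP 2 and 85.1% in IP 3, against 68.4% in the Input. The ratio of Unc13a to Unc13b was above that of the Input in IP 2 and 3 and below it in IP 1, with values of 4.27, 13.7 and 19.4 in IP 1, 2 and 3 and 5.25 in the Input.

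The SV2 proteins are vesicle glycoproteins known as receptors for botulinum toxins. Sv2a was at 224, 220.05 and 256 CPM in IP 1, 2 and 3, against 136 CPM in the Input, a log2 fold of 0.77 ± 0.45 (SE), above the Input in all 3. Sv2b, the most abundant of the family in the Input per kb, was at 349, 687 and 576 CPM in the IP libraries and 616 CPM in the Input (log2 fold -0.20 ± 0.40, and 0.013 without IP 1), and Sv2c at 20.5, 32.7 and 12.9 CPM and 14.0 CPM (log2 fold 0.65 ± 1.04). Per kb of exon the share of Sv2a was 52.5%, 35.8% and 44.1% in the IP libraries against 28.2% in the Input, and that of Sv2b 45.2%, 61.7% and 54.9% against 70.4%. Sv2a was thus the higher of the pair in IP 1, and Sv2b in IP 2, IP 3 and the Input.

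**Figure D4:**
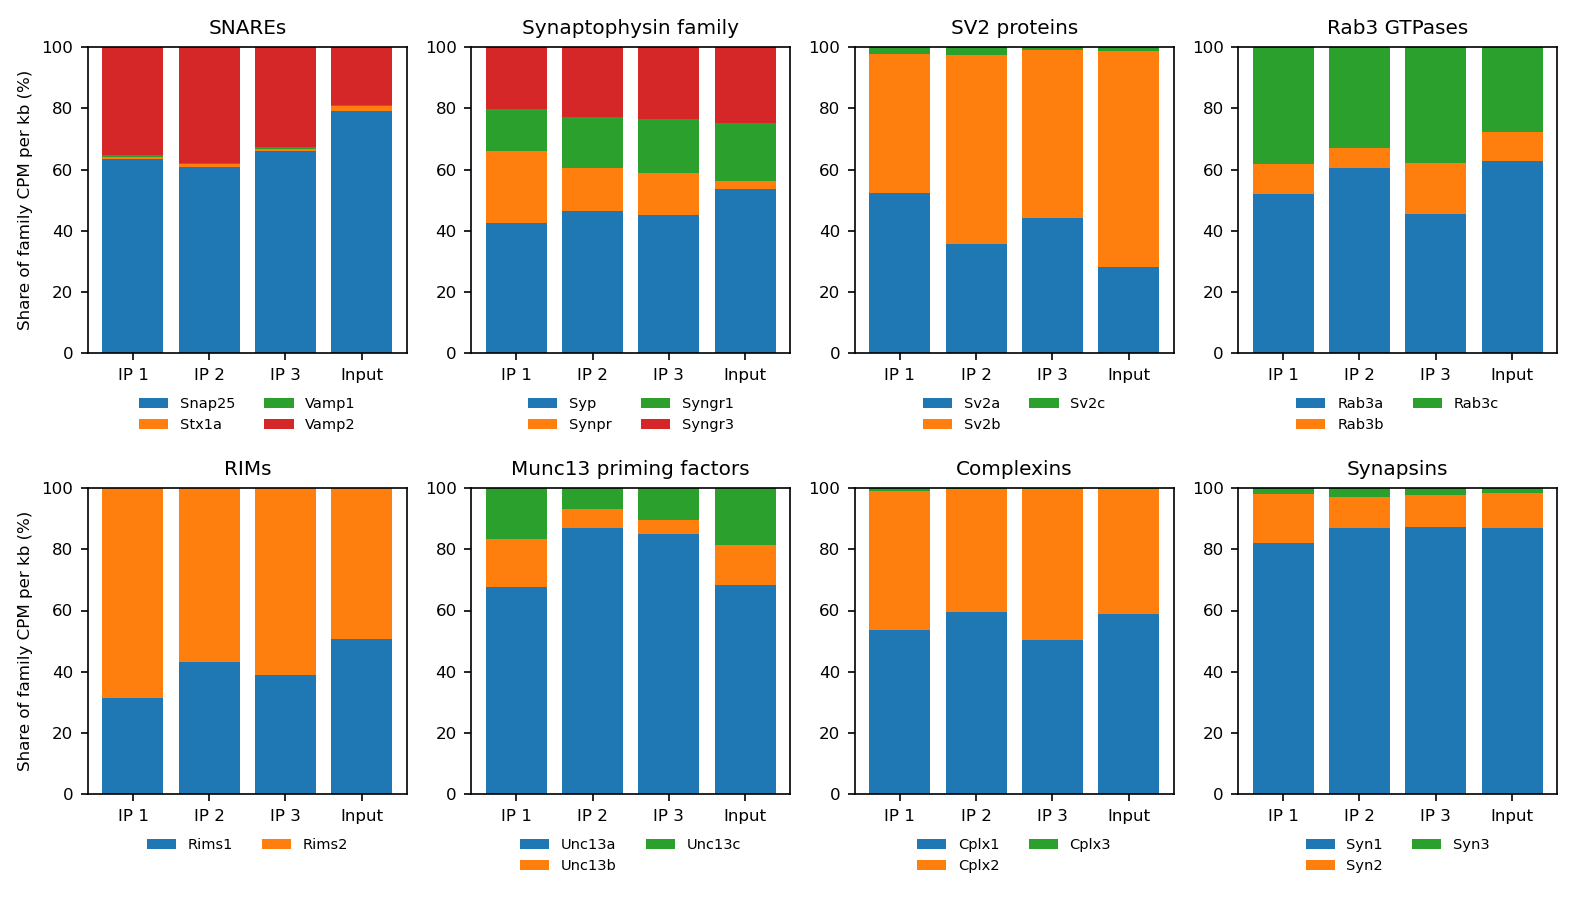
Share (percent) of each gene in the summed CPM per kb of exon of its group, 1 bar per library, for 8 groups. Synpr takes 13.7% to 23.3% of the synaptophysin family in the IP libraries and 2.35% in the Input, Vamp2 32.6% to 37.8% of the 4 SNARE genes against 18.9%, and Rims2 56.7% to 68.7% of the RIMs against 49.4%.

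Complexins, which clamp and promote fusion, were in close proportions in IP and Input. Cplx2 was at 1625, 1448 and 1790 CPM in IP 1, 2 and 3, against 1077 CPM in the Input (log2 fold 0.59 ± 0.33, SE), and Cplx1 at 854, 955 and 811 CPM and 694 CPM (log2 fold 0.33 ± 0.34), both above the Input in all 3. The ratio of Cplx2 to Cplx1 per kb of exon was 0.846, 0.674 and 0.981 in the IP libraries and 0.689 in the Input, inside the IP range. Cplx3, a complexin known from retinal ribbon synapses and some cortical cells, was at 19.5, 4.28 and 9.66 CPM in the IP libraries and 6.96 CPM in the Input, highest in IP 1 and below the Input in IP 2, with a log2 fold of 0.68 that was -0.017 without IP 1.

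Synapsins tie vesicles into the reserve pool. Syn1 was at 1537, 1851 and 1825 CPM in IP 1, 2 and 3, against 1548.5 CPM in the Input (log2 fold 0.17 ± 0.31, SE), which lay inside the IP range. Syn3, the least abundant, was at 143, 236 and 171 CPM in the IP libraries and 106.5 CPM in the Input (log2 fold 0.78 ± 0.50). Syn2 was at 640, 458 and 464 CPM in the IP libraries and 436 CPM in the Input (log2 fold 0.26 ± 0.38). Both were above the Input in all 3 IP libraries, though the fitted fold of Syn2 turned to -0.012 with library totals. Of the exon bases of Syn3, 14.11% are shared with Timp3, which lies on the opposite strand and was at 14.7, 13.8 and 73.6 CPM in the IP libraries and 27.1 CPM in the Input. Syn1 held 81.9%, 86.9% and 87.4% of the family per kb of exon in the IP libraries and 86.9% in the Input.

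Sncb, the gene of beta-synuclein, a presynaptic protein, was at 118, 97.1 and 95.2 CPM in IP 1, 2 and 3, against 75.0 CPM in the Input (log2 fold 0.46 ± 0.56, SE). Doc2a, a calcium sensor linked to spontaneous and asynchronous release, was at 6.23, 5.13 and 11.7 CPM in the IP libraries and 16.4 CPM in the Input (log2 fold -1.09 ± 1.24), below it in all 3. Of the exon bases of Doc2a, 39.35% are shared with Ino80e, a gene on the opposite strand. The strand of counting was not given in the sources used here.

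Over all groups, the share within the group, per kb of exon, was on the same side of the Input in all 3 IP libraries for 22 of 40 members (55%). No like share was computed for other genes, so the 55% is not read as an excess. For levels, a different measure, 43.8% of all tested genes lay on the same side. Of tested genes at 50 CPM or more, 40.1% lay above the Input in all 3 IP libraries and 13.9% below. Shares within a group are not independent, since a gain for 1 member is a loss for the others, and the SNAREs and the pair Sncb and Doc2a are grouped by role and not by descent. With 1 Input, an exact permutation test cannot pass 0.05, so shares are given without a test. The order of the 40 genes by level per kb was headed by Snap25, Vamp2, Syn1 and Cplx1 in IP and in the Input alike, with 1486 ± 239, 827 ± 155, 527 ± 52.8 and 399 ± 33.8 CPM per kb in IP (SD, n = 3), against 2055, 492, 469 and 317 CPM per kb in the Input. Lengths are the union of all annotated exons, so a gene with many long alternative exons has its level understated.

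No other gene of the release, recycling or proton pump lists passed the edgeR test with all libraries. Of 50 tested genes of the wider release machinery 0 passed by edgeR, DESeq2 or limma-voom, with 2 higher and 0 lower at an unadjusted p under 0.05 (Rph3a and Snap47), and their median log2 fold was 0.14. Rph3a, the gene of rabphilin, which binds Rab3, was at 1250, 1678 and 1640 CPM in IP 1, 2 and 3, against 774 CPM in the Input (log2 fold 0.98 ± 0.35, SE, edgeR adjusted p = 0.628), and without IP 1 its log2 fold was 1.08 (edgeR adjusted p = 0.00876). Of 24 tested genes of vesicle recycling 0 passed by edgeR, with 1 higher at an unadjusted p under 0.05, Dnm3, and of 16 subunits of the vesicular proton pump 0 passed by any of the 3 tools, with 0 in either direction at that level. Their medians were 0.25 and 0.30. Dnm3, the gene of dynamin 3, was at 1031, 989 and 940 CPM in the IP libraries and 351 CPM in the Input (log2 fold 1.49 ± 0.37, edgeR adjusted p = 0.113), and passed with DESeq2 (adjusted p = 0.0222), with limma-voom (adjusted p = 0.0460) and by edgeR without IP 1 (adjusted p = 0.00120).

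Vesicular transporters load the transmitter and so mark the kind of neuron. Of 7 tested 0 passed in the edgeR fit described above or by limma-voom, with 1 higher and 1 lower at an unadjusted p under 0.05. Slc32a1, the GABA transporter of vesicles, was at 176, 104 and 163 CPM in IP 1, 2 and 3, against 22.3 CPM in the Input (log2 fold 2.73 ± 0.62, SE, edgeR adjusted p = 0.0651). It passed with DESeq2 (adjusted p = 9.20e-05) and by edgeR without a low-count filter (0.0113), with a robust prior (0.0418), without IP 1 (0.0178) and without IP 2 (0.00639), and its adjusted p was 0.275 with limma-voom. Slc17a7, the glutamate transporter VGLUT1, was at 201, 403 and 214 CPM in the IP libraries and 633 CPM in the Input (log2 fold -1.22 ± 0.41, edgeR adjusted p = 0.535). The ratio of Slc32a1 to Slc17a7 per kb of exon was 1.69, 0.499 and 1.47 in the IP libraries and 0.0680 in the Input, lowest among the IP libraries in IP 2. Of the exon bases of Slc32a1, 24.92% are shared with another annotated gene.

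**Figure D5:**
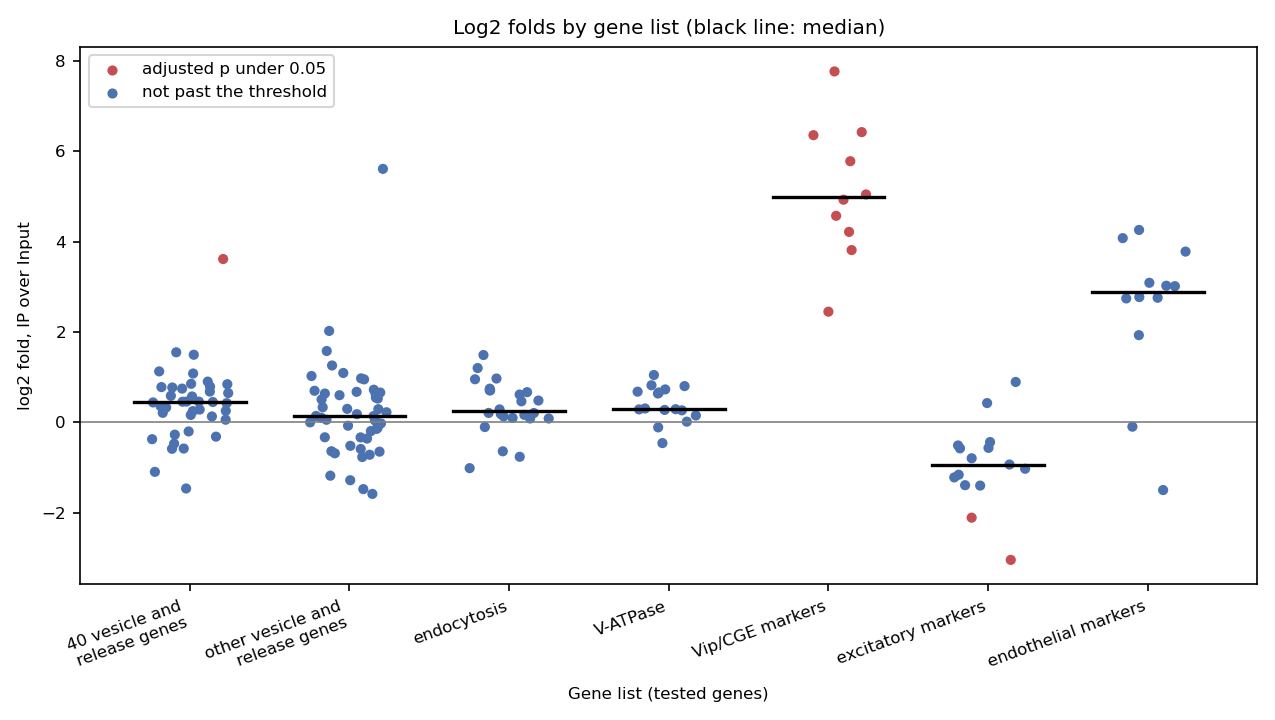
Log2 fold of IP over Input for the tested genes of 7 lists (points, with sideways scatter to separate them); red points passed the adjusted threshold and black lines are medians. Among the 40 genes (median 0.45) Synpr alone is red and the others lie between -1.46 and 1.55, while all 10 Vip and CGE markers passed (median 4.99); the point at 5.61 among the other release genes is Syngr4, with 24, 1 and 0 counts in IP 1, 2 and 3 and 0 counts in the Input.

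Markers of Vip interneurons and of the caudal ganglionic eminence (CGE), where they are born, rose in IP, as did several GABAergic genes. All 10 Vip and CGE markers were called, with log2 folds between 2.45 for Cnr1 and 7.77 for Crh, and Vip, Tac2, Htr3a, Calb2, Cxcl14, Nr2f2, Adarb2 and Prox1 between them, and limma-voom called 6 of the 10. Their summed level was 5664 to 9234.5 CPM in the IP libraries and 353 CPM in the Input. Of 8 GABAergic markers 5 were called (Gad1, Gad2, Dlx1, Dlx6os1 and Erbb4) and all 8 lay above the Input in the 3 IP libraries, with sums of 3733.5 to 4792 CPM in the IP libraries and 794 CPM in the Input. Of 10 markers of the parvalbumin and somatostatin classes Elfn1 alone was called (log2 fold 2.66), though not by limma-voom. The median log2 fold of the 10 was -0.084, with 4 above the Input in all 3 IP libraries, 0 below and 6 mixed. Sst, which was among the 4, was at 708, 581 and 746 CPM in IP 1, 2 and 3, against 332 CPM in the Input. Pvalb (log2 fold -1.07) was among the 6, and Chodl was at 0 counts in at least 1 IP library.

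Among 15 excitatory markers tested, Nrn1 (log2 fold -3.04, with 22.28% of its exon bases shared with another gene) and Nrgn (-2.11) fell. In all, 11 of the 15 were under the Input in each IP library and 1 over it. The summed level of the 16 listed was 3550 to 6597 CPM in the IP libraries, highest in IP 2, and 5821.5 CPM in the Input. Camk2a, the most abundant by CPM, made up 2590, 4976 and 4160 CPM of this in IP 1, 2 and 3, against 2902 CPM in the Input, and without it the sums were 961, 1621 and 1148 CPM in the IP libraries and 2919.6 CPM in the Input. Of 12 endothelial markers 10 lay above in all 3, summing to 167, 523 and 233 CPM in IP 1, 2 and 3, against 44.0 CPM in the Input. Astrocyte markers (11 of 12 below in all 3) summed to 1696 to 2887 CPM in the IP libraries and 2802 CPM in the Input, those of oligodendrocytes (8 of 12) to 356 to 639 CPM and 849 CPM, and those of microglia (10 of 12) to 27.6 to 68.7 CPM and 109 CPM, with Tmem119, C1qa, Aif1 and Trem2 at 0 counts in at least 1 IP library. Of the endothelial, astrocyte, oligodendrocyte and microglial genes 0 were called by edgeR with all libraries and the low-count filter or by limma-voom, while 2 endothelial genes were called by DESeq2, and also by edgeR without the filter, without IP 1 and without IP 3. The part of these cells in the values of the 40 genes was not tested, and fewer cells of a type and less RNA per cell cannot be told apart in such bulk samples. Synpr, like Crh, was highest in IP 1, where Crh was at 501 CPM, with 174 and 193 CPM in IP 2 and 3, against 1.32 CPM in the Input. The highest value was in IP 1 for 13 of the 40 members, so this was not particular to Synpr.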

How the data were processed

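Read counts per gene in 3 IP libraries and 1 Input were used as the authors deposited them, raw and with 1 library per file, per the file headers. The submitters' processing notes name STAR 2.0.0e, HTSeq (no version) and build mm10. The file names hold the word subread, so the counter was not settled, and the annotation, the strand of counting and the treatment of reads that map to several places are not given in the sources used here. Reads of overlapping genes may thus be lost or shared. The 9 genes with no symbol took at most 0.0221% of a library.

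In R 4.3.3 with edgeR 4.0.16, genes were kept by filterByExpr (minimum count 10), libraries scaled by TMM, with factors of 0.974, 0.932 and 0.955 for IP 1, 2 and 3 and 1.15 for the Input, and the two-sided quasi-likelihood F test was used for IP against Input, with p-values adjusted by Benjamini-Hochberg over 14636 genes (threshold 0.05). SE is the log2 fold divided by √F. Since the Input is single, the error rests on the 3 IP libraries (2 residual degrees of freedom, prior 17.0) and on the assumption that an Input would vary as they do. A single count was worth 0.0436, 0.107 and 0.0862 CPM in IP 1, 2 and 3 and 0.0600 CPM in the Input. No library was a copy of another (chi-square per degree of freedom of at least 84.7 for each pair). This value was lowest for IP 2 and 3, against 136 and 149 for IP 1 with each of them. The value also grows with depth, and IP 1 was the deepest library. It thus does not show that IP 1 was less like the others. The fit without IP 1 tested 14332 genes and took its error from IP 2 and 3 and the prior alone. Smaller p-values in that fit are therefore not stronger support than those with all libraries. Exon lengths and shared exon bases came from GENCODE M21 (GRCm38, the assembly of mm10), and promoter windows from RefSeq. The fit was also run on simulated data, with planted changes larger than any member's fold and less spread than in these data. That run does not show its power or error rate for folds of the size seen here.

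The members and gene lists were chosen with earlier results of these data known. Named in full are the members past the threshold and, in each group, the 2 with the largest log2 fold and the most abundant in the Input, with a few fixed genes of the wider lists, some of which are not reported here; the remaining members, Rph3a, Snap47, Dnm3, Timp3, Camk2a and Syngr4 are also given, chosen after their values were seen. The level of 50 CPM was also chosen after seeing the data. Alternatives were DESeq2 1.42.0, limma-voom (limma 3.58.1), other scalings, other filters, a robust prior, a stricter threshold and leaving out each IP library.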

Additional observations from a re-analysis of the deposited data

How the results depend on the processing

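Synpr was called higher under all 12 alternatives, and no other member was called under any except the fit without IP 1. Leaving out 1 IP library gave 1 to 3 members called higher and 0 to 1 lower, 82 to 185 genes in all called higher and 8 to 25 lower. The main counts of 60 higher and 7 lower over all genes became 94 and 14 without a low-count filter, 169 and 13 with DESeq2, 37 and 14 with limma-voom, 35 and 4 at an adjusted p under 0.01, and 51 and 15 with upper-quartile factors or 50 and 15 with library totals. The median log2 fold of the members, 0.45, was 0.23 with upper-quartile factors, 0.17 with library totals and 0.33 for the filter at 5 CPM; both scalings also moved the median of all tested genes, from 0.083 to -0.13 and -0.19. The fitted folds of Syn1 and Syt1, both near 0, turned to -0.11 and -0.21 with library totals and to -0.052 and -0.16 with upper-quartile factors. Those of Syn2 and Syt11 turned to -0.012 and -0.025 with library totals. The counts of members above and below the Input in all IP libraries under other scalings, chosen after seeing the data, are in the text. The cause of these shifts was not tested. No paired analysis was possible because there was a single Input for the 3 IP libraries. Low members such as Syt2, Syt3, Syt12 and Cplx3 are limited by the spread between IP libraries, and a count of 0 would have allowed up to 0.131, 0.321 and 0.259 CPM in IP 1, 2 and 3 and 0.180 CPM in the Input, for counting error only.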
